A study of Mus musculus with 4 samples.

Results

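The cornified envelope of mouse skin is described here through 8 genes, 3 transglutaminases (Tgm1, Tgm3 and Tgm5) and 5 proteins that the enzymes cross-link or that sit in the scaffold beneath the membrane (Ivl, Evpl, Ppl, Scel and Cnfn). They were named as a list out of 18193 genes on the array, with earlier results of these data known, and no measured value decided which genes entered. The annotation gives the 8 genes 11 probe sets, and each gene is reported by its brightest one, judged by the mean log2 value of the 4 arrays.

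All arrays carried RNA from skin of female, wild-type BALB/c mice. Every animal, vehicle animals included, had been sensitised on the ear with ovalbumin, an egg-white allergen, given together with MC903 (calcipotriol, a vitamin D analogue), and had then been fed ovalbumin. Between this oral challenge and the next, the vehicle group received ethanol on the skin and the MC903 group received MC903, and the treated skin was sampled for RNA after the later challenge. Each group has 2 arrays, named vehicle 1 and 2 and MC903 1 and 2. The vehicle group is therefore skin of mice exposed earlier to the same drug at the ear, and the labels give neither age, dose, interval nor the site treated later. No label states that the samples were separate animals, so the p-values reflect sample-to-sample spread, and that spread may be technical.

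The cornified envelope is the tough protein shell that replaces the membrane of a dying keratinocyte at the skin surface. Envoplakin (Evpl) and periplakin (Ppl), of the plakin family that links filaments to desmosomes, and involucrin (Ivl) are laid down first beneath the membrane. Transglutaminases then join glutamine to lysine side chains, first within that scaffold and later to loricrin and small proline-rich proteins. Loss of TGM1 in people causes lamellar ichthyosis, a scaling disorder, and loss of TGM5 causes acral peeling skin.

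Signals below are the deposited linear values, scaled so that every array has a trimmed mean of 500, and differences are MC903 minus vehicle on the scale log2(signal + 16), where 1 is a doubling. The 8 genes lay between 650 and 9904, well above the bacterial TrpnX control probes (up to 24) and well below the brightest probe of any array (at least 41771). Markers of skin were present: the summed signal of 6 basal keratinocyte genes was 97323 to 98189 in vehicle and 95443 to 98702 in MC903. Of these 6, 3 were higher and 3 lower in both MC903 arrays. The sum of 5 suprabasal genes was 138189 to 153626 in vehicle and 178598 to 183916 in MC903. Among the suprabasal genes Krt1 differed by 1.30 and Dmkn, with the next largest difference, by 0.23. Some keratinocyte markers lay near the brightest probes of the arrays (41771 to 50150), with Krt10 at 39061.5 to 45067 and Krt14 at up to 39813. Whether signals were compressed at that level was not tested. Hair shaft and inner root sheath markers were lower in both MC903 arrays for 13 of 13 measured genes, with summed signals of 48059 to 81182 in vehicle and 9515 to 11145 in MC903. Neutrophil markers (4 of 4 measured) and macrophage markers (5 of 5) were higher in both MC903 arrays. Their summed signals were 865 to 1378 and 11622 to 13871 in vehicle, 64508 and 34972 in MC903 1, and 10321 and 18263 in MC903 2. T cell markers (3 of 4) and adipocyte markers (3 of 3) were also higher in both MC903 arrays, the adipocyte sum being 1537 to 1823 in vehicle, 2258 in MC903 1 and 3961 in MC903 2. Melanocyte markers (5 of 5) were lower, with sums of 7443 to 10054 in vehicle and 3467 to 4222 in MC903. Skeletal muscle markers summed to 24339 to 40943 in vehicle, 7799 in MC903 1 and 31991 in MC903 2. Fibroblast markers (3 of 5) were lower, with sums of 67580 to 74091 in vehicle and 58650.5 to 63101 in MC903. Of 4 measured sebaceous gland markers, 1 was higher in both MC903 arrays and 0 lower. Beside these counts, 21.6% of all genes were higher and 28.2% lower in both MC903 arrays. The part of these cell types in the results below was not tested, and in whole skin a change in the number of cells cannot be told apart from a change in RNA per cell.

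Signals of all 3 transglutaminases and of the envelope protein genes Ivl and Cnfn stood 1.87-fold to 2.48-fold higher in MC903-treated skin. Evpl, Ppl and Scel, also envelope protein genes, overlapped between the groups. In 5 of the 8 genes both MC903 arrays were above both vehicle arrays, against 21.6% of all genes, and in 0 of 8 were both below, against 28.2%. limma with a constant prior variance called 0 of the 8 genes, as it called 0% of all genes at an adjusted p below 0.05. Unadjusted, the same 5 genes had a p below 0.05 and were higher, against 6.82% of all genes. With a prior variance that limma let depend on the mean signal (called the prior that follows the signal), 2 of the 8, Tgm1 and Cnfn, passed as higher, against 0.539% of all genes. These 2 calls ended when vehicle 1 or vehicle 2 was left out. With any 1 array left out, the difference ran from 0.88 to 0.93 for Tgm1 and from 1.25 to 1.37 for Cnfn. Such fits leave 1 array in a group, and their calls are given further below beside those of all genes.

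**Figure D1:**
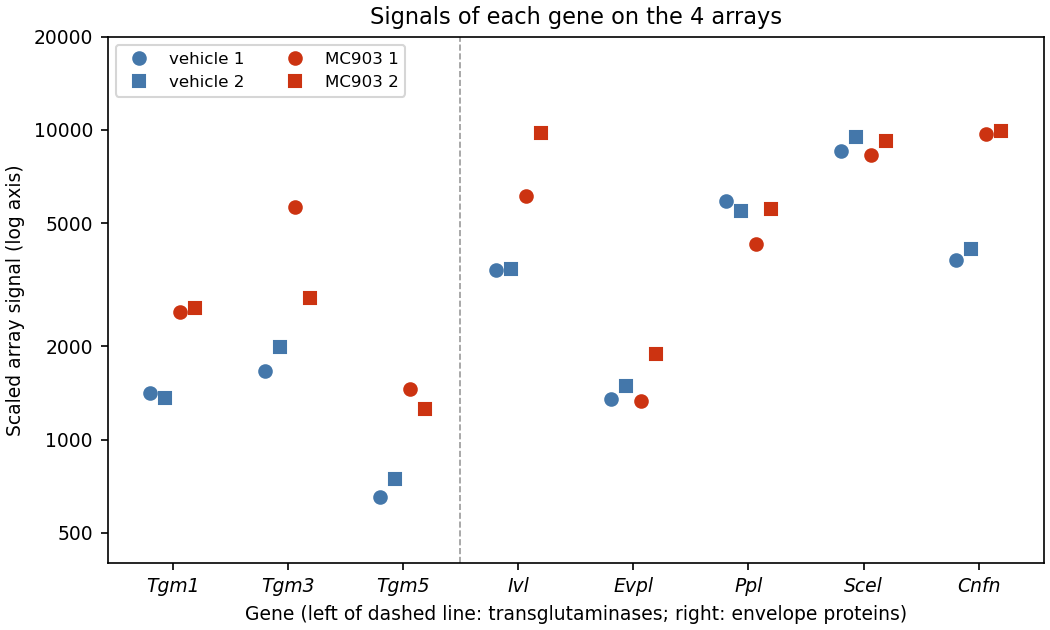
Scaled signal (vertical log axis) of each gene on the 4 arrays, circles for replicate 1 and squares for replicate 2, blue for vehicle and red for MC903. Tgm1, Tgm3, Tgm5, Ivl and Cnfn have both red points above both blue points, whereas the points of Evpl, Ppl and Scel interleave.

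Tgm1 encodes the membrane-anchored transglutaminase of the upper epidermis (probe set 1451416_a_at). Its signals were 1415 and 1365 under vehicle against 2576 and 2661 under MC903. Both pairs lay close together and did not overlap. The difference was 0.91 ± 0.15 (SE, n = 2 per group), a 1.87-fold higher level (limma, adjusted p = 0.178; with the prior that follows the signal, adjusted p = 0.0357). Leaving out any 1 array moved it only between 0.88 and 0.93.

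Tgm3 encodes a soluble transglutaminase that is activated by cleavage and that works in both the epidermis and the hair follicle (probe set 1440150_at). It stood at 1667 and 1988 under vehicle against 5621 and 2856 under MC903. Both MC903 arrays were the higher ones, but MC903 1 was far above MC903 2. The difference was 1.13 ± 0.37 (limma, adjusted p = 0.298), 1.62 without MC903 2 and 0.64 without MC903 1. Its other probe set, 1421355_at, stood at 389 and 524 under vehicle against 1156 and 749 under MC903, a difference of 1.02 ± 0.30 with the same order of arrays. Over the same arrays hair markers had a median difference of -3.31, and neutrophil and macrophage marker signal was highest in MC903 1. Which cells the Tgm3 signal came from was not tested.

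Tgm5 encodes the transglutaminase whose loss splits the outermost layers (probe set 1430142_at). Signals of 650 and 744 under vehicle against 1452 and 1251 under MC903 gave a difference of 0.94 ± 0.18 (limma, adjusted p = 0.194), which is 1.92-fold. The groups did not overlap, and the smallest gap between an MC903 and a vehicle array was 0.74 on the log2 scale. Tgm5 missed the threshold narrowly with the prior that follows the signal (limma, adjusted p = 0.0642).

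Ivl, the gene of involucrin, a glutamine-rich rod that is among the first proteins cross-linked, was measured by 2 probe sets. The brighter one, 1439878_at, stood at 3528 and 3565 under vehicle against 6110 and 9764 under MC903. The vehicle arrays were nearly equal and the MC903 arrays were both higher but unequal, with MC903 2 the higher. This gave a difference of 1.12 ± 0.27, or 2.17-fold (limma, adjusted p = 0.234), which was 0.78 without MC903 2 and 1.46 without MC903 1. The other probe set, 1422222_at, stood at 651 and 723 under vehicle against 1075 and 1638 under MC903, a difference of 0.94 ± 0.26 in the same order. The 2 MC903 arrays therefore ranked opposite ways for Ivl and for Tgm3.

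Cnfn encodes cornifelin, a small cysteine-rich protein incorporated into the envelope (probe set 1429540_at). It had the largest difference of the 8 genes and was the only one in which each MC903 array exceeded each vehicle array by at least 2-fold (4 pairings), a mark met by 1.16% of all genes. Its signals were 3797 and 4114 under vehicle against 9733 and 9904 under MC903. Replicates agreed within each group and the groups lay far apart, by 1.31 ± 0.15, or 2.48-fold (limma, adjusted p = 0.153; adjusted p = 0.0131 with the prior that follows the signal). Leaving out any 1 array gave 1.25 to 1.37.

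The envelope protein genes Evpl, Ppl and Scel gave no such separation. Evpl (probe set 1419133_at) stood at 1351 and 1494 under vehicle against 1328 and 1885 under MC903, so that MC903 1 was the lowest and MC903 2 the highest of the 4 arrays. Its difference was 0.15 ± 0.23, with a 95% interval of -0.47 to 0.78 (limma, adjusted p = 0.785), and its sign turned without MC903 2 (-0.10). Ppl (probe set 1460732_a_at), the partner with which envoplakin pairs, stood at 5910 and 5475 under vehicle against 4282 and 5555 under MC903. Only MC903 1 lay below both vehicle arrays, and the difference was -0.22 ± 0.20 with a 95% interval of -0.76 to 0.32 (limma, adjusted p = 0.638). Scel encodes sciellin, a precursor of the envelope that the enzymes also cross-link (probe set 1422837_at). It stood at 8561 and 9482 under vehicle against 8272 and 9211 under MC903. These signals interleaved, with a difference of -0.05 ± 0.17 and a 95% interval of -0.49 to 0.40 (limma, adjusted p = 0.921). Sciellin's other probe set, 1459426_at, stood at 2.02 to 14.7 on all arrays, no brighter than the TrpnX controls (1.55 to 24), and gives no level. These intervals do not show that the 3 genes stayed the same: they allow differences of up to 0.78 (Evpl), 0.32 (Ppl) and 0.40 (Scel) upward.

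**Figure D2:**
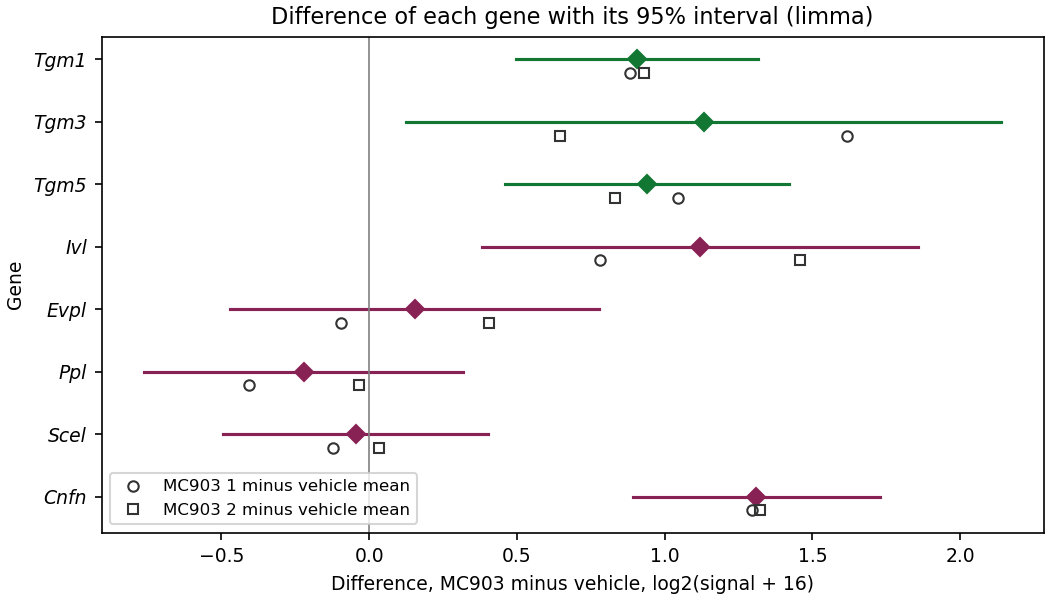
Difference between MC903 and vehicle for each gene on the log2(signal + 16) axis, with diamonds for the mean difference, bars for limma's 95% interval (green for transglutaminases, purple for envelope proteins) and open symbols for each MC903 array minus the vehicle mean. The intervals of Tgm1, Tgm3, Tgm5, Ivl and Cnfn lie above 0 before any adjustment for the number of genes, and those of Evpl, Ppl and Scel include 0.

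Set side by side, the cross-linking enzymes had mean differences of 0.91 to 1.13 with a median of 0.94. Against the vehicle mean they spanned 0.88 to 1.62 in MC903 1 and 0.64 to 0.93 in MC903 2, with Tgm3 at one end each time. Their substrates and scaffold partners spread from -0.22 to 1.31 with a median of 0.15. The median over all genes was -0.04. By array, the enzyme median was 1.04 in MC903 1 and 0.83 in MC903 2, and the envelope protein median was -0.10 and 0.40. Among the envelope proteins, Ivl and Cnfn lay with the enzymes, and Evpl, Ppl and Scel lay near 0. No test of the enzymes as a set against the envelope proteins was made.

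Windows from 250 bases before to 50 after a transcription start were taken from a RefSeq table (GRCm38.p6), in which 6 of the 8 genes were matched, and Evpl and Ppl were not matched. Motifs were searched on both strands, and a match is a description of letters, not of binding. The AP-1 letters TGANTCA, known from involucrin control in keratinocytes, were found in the windows of Ivl and Scel and in 7.81% of all 32851 windows. TATAAA occurred in the windows of Ivl and Tgm3, the latter at a start inside the annotated gene, and in 13.6% of all windows. Direct repeats of AGGTCA or AGTTCA with 3 bases between, a form in which the vitamin D receptor binds, were in 0 of the 7 windows of these genes and in 0.0122% of all. Single copies of AGGTCA or AGTTCA were in the windows of Ivl, Tgm3 and 1 of the 2 windows of Tgm1, and in 27.7% of all windows. The windows given here are those of Ivl (chr3:92573686-92573985, minus strand), where MC903 signals were higher, Scel (chr14:103513091-103513390, plus strand), where the groups overlapped, and Cnfn (chr7:25369675-25369974, minus strand), with the largest difference. Each is written 5′ to 3′ along the gene, with TGANTCA and TATAAA in capitals.
Ivl: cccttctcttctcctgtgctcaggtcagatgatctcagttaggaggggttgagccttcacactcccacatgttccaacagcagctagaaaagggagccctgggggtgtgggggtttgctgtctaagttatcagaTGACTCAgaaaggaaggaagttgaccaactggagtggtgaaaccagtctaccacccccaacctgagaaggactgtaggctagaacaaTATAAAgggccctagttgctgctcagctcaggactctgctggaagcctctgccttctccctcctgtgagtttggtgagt
Scel: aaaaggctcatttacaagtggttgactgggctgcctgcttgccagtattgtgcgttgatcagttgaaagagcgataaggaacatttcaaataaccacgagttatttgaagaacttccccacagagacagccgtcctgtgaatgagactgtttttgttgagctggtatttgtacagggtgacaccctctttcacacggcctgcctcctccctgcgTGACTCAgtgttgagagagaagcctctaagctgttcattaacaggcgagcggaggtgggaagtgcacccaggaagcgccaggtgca
Cnfn: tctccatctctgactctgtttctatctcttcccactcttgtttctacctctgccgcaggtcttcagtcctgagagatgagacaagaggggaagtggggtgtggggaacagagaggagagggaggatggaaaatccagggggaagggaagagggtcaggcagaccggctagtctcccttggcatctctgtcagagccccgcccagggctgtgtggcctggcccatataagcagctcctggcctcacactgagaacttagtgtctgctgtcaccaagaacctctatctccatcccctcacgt
In Ivl the AP-1 letters begin 116 bases before the start and TATAAA begins 29 bases before it, and in Scel the AP-1 letters begin 36 bases before it. The AP-1 letters are TGACTCA in both windows, and the Cnfn window holds neither TGANTCA nor TATAAA. Only exact letters were searched, and whether any of them bears on the differences was not tested.

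For the members that differed by at least 1, the genes with the nearest profile over the 4 arrays were looked up among 11787 genes with a mean signal of at least 100. Likeness was the Euclidean distance between log2 values centred on each gene's mean. Cnfn was nearest to Pla2g4e, a cytosolic phospholipase gene (distance 0.066), Teddm3 (0.076) and Krt1 (0.091), the main type II keratin of suprabasal cells. Krt1 stood at 11798 and 13797 under vehicle against 31840 and 30964 under MC903. Ivl was nearest to Ifrd1 (0.093), Sult2b1, a cholesterol sulfotransferase (0.148), and Gbp2, a guanylate-binding protein (0.169). Tgm3 was nearest to Ube2c, a ubiquitin-conjugating enzyme of mitosis (0.084), and to the leukocyte genes Tyrobp (0.095) and Lcp1 (0.103). Tyrobp stood at 1882 and 2278 under vehicle against 5948 and 3277 under MC903, the same order as Tgm3. Whether genes with near profiles share a cell source was not tested. Nearest among the 8 genes themselves were Tgm5 for both Cnfn (0.41) and Tgm3 (0.57), and Tgm1 for Ivl (0.50). Closer than that member lay 85 genes for Cnfn, 272 for Tgm3 and 91 for Ivl. These distances rest on 4 arrays, and the 3 profiles differ in which MC903 array is higher: MC903 1 for Tgm3, MC903 2 for Ivl, and neither by much for Cnfn.

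**Figure D3:**
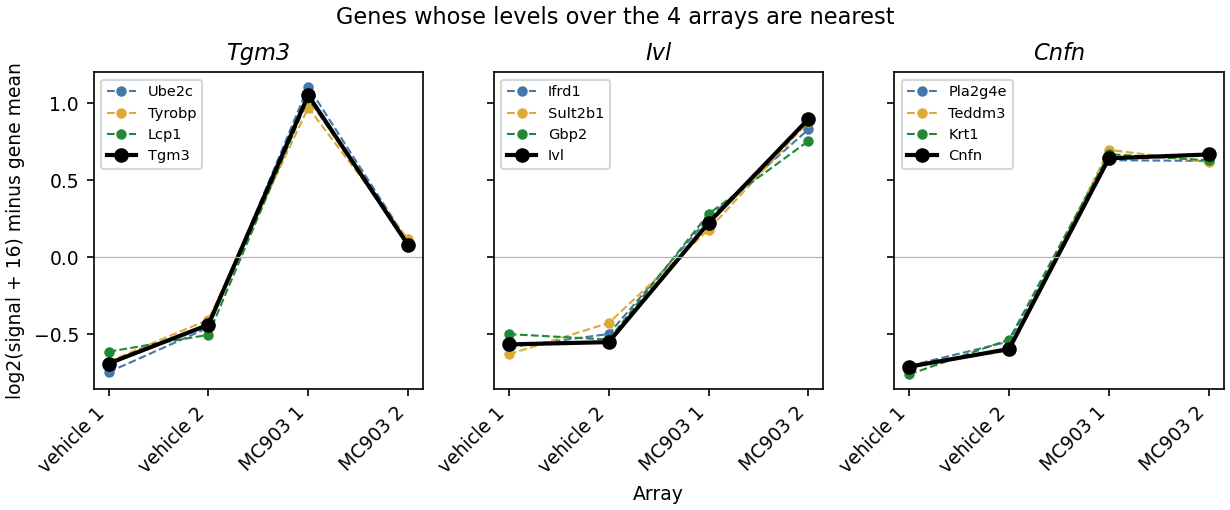
Profiles over the 4 arrays (horizontal axis) of Tgm3, Ivl and Cnfn in black, each with its 3 nearest genes as dashed coloured lines, as log2(signal + 16) minus the gene's own mean. Tgm3 peaks in MC903 1, Ivl in MC903 2, and Cnfn is level between them.

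Other members of the transglutaminase family differed among themselves, with 5 of 6 measured. Tgm2, the widely expressed tissue transglutaminase, stood at 697 and 468 under vehicle against 1312 and 959 under MC903. Its difference was 0.95 ± 0.29 (limma, adjusted p = 0.274), and the groups did not overlap. The suffix of that probe set (1433428_x_at) marks possible cross-hybridisation, but 4 of the 5 other Tgm2 probe sets were also higher in both MC903 arrays, the fifth lying near background (7.58 to 32). F13a1, the coagulation factor XIII chain made by tissue macrophages, stood at 3602 and 2421 under vehicle against 2217 and 2768 under MC903. It overlapped between groups (-0.25 ± 0.27, but 0.03 without vehicle 1). Tgm6 had signals of 38.2 and 83.4 under vehicle against 32.4 and 23.1 under MC903 (-0.75 ± 0.35, but -0.32 without vehicle 2), and Tgm4 (3.18 to 32.9) and Epb42 (2.61 to 18.3) lay largely or wholly within the TrpnX range. limma called 0 of the 5 with either prior, beside 0% of all genes with the constant prior and 0.539% as higher with the other. Tgm2 alone had an unadjusted p below 0.05, 20% of the 5 beside 6.82% of all genes as higher.

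Plakins and desmosome partners, to which the Evpl and Ppl scaffold attaches, were mixed. Of 15 measured genes of 16 listed, 5 were higher (33.3%) and 3 lower (20%) in both MC903 arrays, beside 21.6% and 28.2% of all genes. Their median difference was 0.09, but -0.05 without MC903 2, 0.22 without MC903 1 and 0.06 without vehicle 1. limma called 0 with either prior, beside 0% of all genes with the constant prior and 0.539% as higher with the other. At an unadjusted p below 0.05, 0 were higher and 1 lower. Beside these, 6.82% of all genes were higher and 1526 of 18193 lower. Dst, the gene of the hemidesmosomal plakin BPAG1, stood at 11721 and 12250 under vehicle against 7794 and 7468 under MC903 (-0.65 ± 0.15). Eppk1, the gene of epiplakin, differed by 0.62 ± 0.24 and Dsc1, a cadherin of the upper layers, by 0.30 ± 0.18, but by 0.37 and 0.18 without MC903 2. Dsc2, a desmosomal cadherin, stood at 440 and 448 under vehicle against 2044 and 620 under MC903 (1.31 ± 0.60, but 0.47 without MC903 1).

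Other substrates and reinforcing proteins of the envelope were higher in both MC903 arrays for 14 of 19 measured genes (22 listed), or 73.7%, and lower for 0, beside 21.6% and 28.2% of all genes. Their median difference was 0.58. limma called 0 of them with the constant prior (9 higher at an unadjusted p below 0.05, or 47.4% beside 6.82% of all genes) and 6 as higher with the prior that follows the signal (31.6% beside 0.539%). Much larger than in any of the 8 genes were the differences of Sprr1b and Sprr2d, small proline-rich cross-bridging proteins (5.33 ± 0.29 and 4.44 ± 0.43), of the late envelope gene Lce3f (4.51 ± 0.37) and of Rptn, the gene of repetin (4.08 ± 0.28). Sprr1b stood at 438 and 740 under vehicle against 23284 and 23700 under MC903. The other 2 probe sets of Rptn were dim (18.0 to 50.3) and did not share its direction, and the close sequence of the Sprr2 genes leaves the source of Sprr2d signal uncertain. These 4 genes were already known from these data to be far apart. They are counted in each share of this list given above, so those shares were partly fixed beforehand.

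Enzymes of the corneocyte lipid envelope, the ceramide coat that is bound to involucrin and the plakins, were higher in both MC903 arrays for 8 of 12 measured genes (13 listed), or 66.7%, and lower for 0, beside 21.6% and 28.2% of all genes. The median was 0.47, 0.25 in MC903 1 and 0.73 in MC903 2. limma called 0 with the constant prior (6 higher at an unadjusted p below 0.05, or 50% beside 6.82%) and 1, Ugcg, with the prior that follows the signal (8.33% beside 0.539%). Ugcg, the glucosylceramide synthase, differed by 1.15 ± 0.19, and the epoxide hydrolase gene Ephx3 stood at 966 and 1140 under vehicle against 1955 and 2297 under MC903. Alox12b, the lipoxygenase that oxidises the ceramides, stood at 1570 and 1607 under vehicle against 2372 and 3868 under MC903 (0.92 ± 0.28, but 0.57 without MC903 2). Sdr9c7, a dehydrogenase of the same route, differed by 0.68 ± 0.24, but by 0.39 without MC903 2. Alox12b had its higher value in MC903 2, as Ivl did.

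The list of proteases and inhibitors of the cornifying layers held 8 genes, with the lysosomal proteases Ctsb, Ctsd, Ctsl and Lgmn among them. Of the 8, 6 were higher (75%), these lysosomal proteases included, and 0 lower in both MC903 arrays. The shares of all genes were 21.6% and 28.2%, and the list median was 0.53. Which cells these signals came from was not tested. limma called 0 with the constant prior, and 3 were higher at an unadjusted p below 0.05 (37.5% beside 6.82%). Casp14, the caspase of the granular layer, stood at 1297 and 1324 under vehicle against 3582 and 5763 under MC903. The difference of 1.78 ± 0.28 passed with the prior that follows the signal (limma, adjusted p = 0.0395). Asprv1, a protease that processes filaggrin, differed by 0.77 ± 0.25 and the lysosomal protease Ctsb by 0.56 ± 0.28, the latter by 0.22 without MC903 1. Lgmn, the gene of legumain, the protease held in check by cystatin M/E in skin, stood at 1833 and 1586 under vehicle against 7020 and 2300 under MC903 (1.23 ± 0.57, but 0.43 without MC903 1).

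Among 16 measured transcription factors of envelope genes (17 listed), 6 were higher (37.5%) and 3 lower (18.8%) in both MC903 arrays, beside 21.6% and 28.2% of all genes. Their median of 0.12 was 0.004 without MC903 2, 0.006 without vehicle 1 and 0.27 without MC903 1, and limma called 0 with either prior (3 higher and 1 lower at an unadjusted p below 0.05). Fosl1, an AP-1 subunit, was dim, at 70.3 and 59.8 under vehicle against 165 and 329.5 under MC903 (1.63 ± 0.36). Junb, another AP-1 subunit, differed by 0.85 ± 0.29 (0.49 without vehicle 1), and Grhl3, a grainyhead factor that drives Tgm1 in the epidermis, by 0.73 ± 0.26 (0.43 without MC903 2). Maf, a factor of keratinocyte differentiation, differed by -0.50 ± 0.15, with signals of 6257 and 6048 under vehicle against 4290 and 4371 under MC903.

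**Figure D4:**
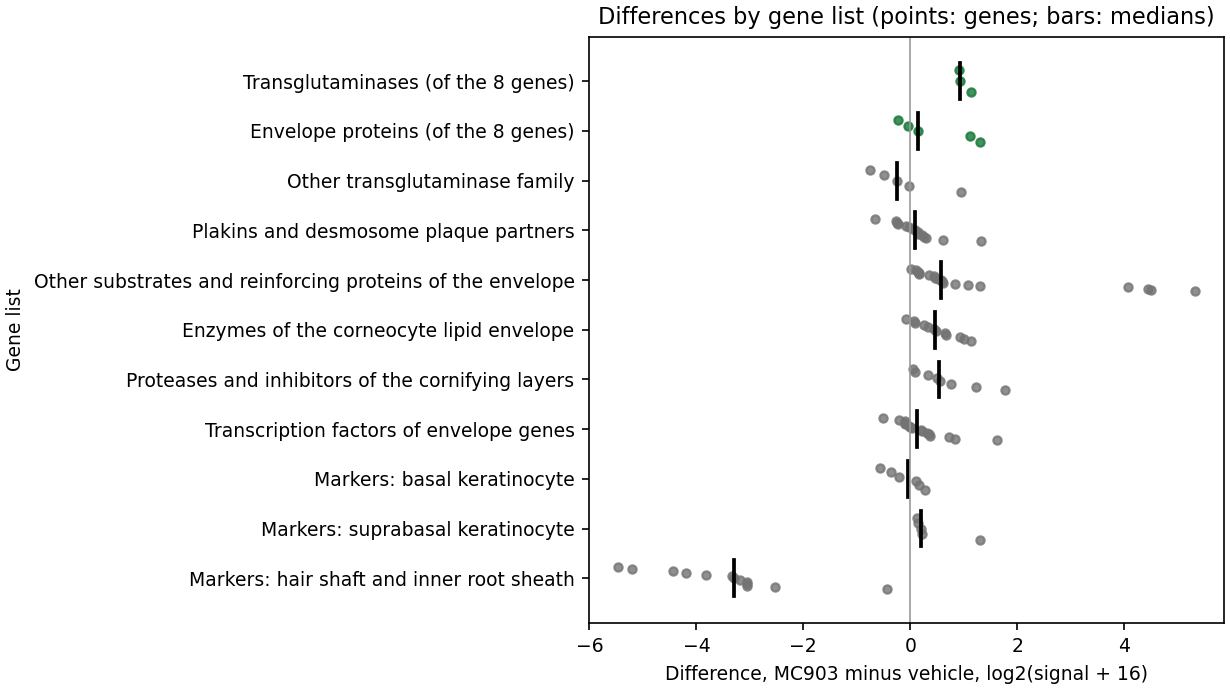
Difference between MC903 and vehicle, log2(signal + 16), for every measured gene of each list shown (points; the 8 genes in green, the others in grey) with the list's median as a black bar. The 3 transglutaminases cluster near 1, the envelope proteins split, Sprr1b, Lce3f, Sprr2d and Rptn lie beyond 4, and 12 of the 13 hair markers lie below -2.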

How the data were processed

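Per the labels' protocols, 200 ng of total RNA per sample gave biotin-labelled target for a 3′ array. The deposited values are linear intensity signals of 45101 probe sets on 4 arrays. Tested on the values, the mean after trimming 2% at each end was 500 on every array, so the authors had scaled them. Which software did this is not given in the sources, and no detection calls were used. Arrays limit precision by their number, 2 per group.

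Probe sets with 1 symbol (34945) were named through the platform annotation, updated by Entrez ID, and the one with the highest mean log2(signal + 16) stood for each of 18193 genes. In R 4.3.3, limma 3.58.1 (lmFit, eBayes with a constant prior variance, 2 residual and 2.32 prior degrees of freedom) compared MC903 with vehicle over all genes with Benjamini-Hochberg adjustment, threshold 0.05. Errors are limma's SE, and 95% intervals use its moderated degrees of freedom. With 2 arrays on each side, 0.333 is the smallest two-sided p of an exact permutation test. The fit was tested on 20 simulated data sets in which 200 of the brighter genes were changed 4-fold or 16-fold. At 4-fold the constant prior recovered 71.1% of the changed genes, and the prior that follows the signal 91.3%. At 16-fold the shares were 98% and 99.45%, and the mean numbers of false calls were 5.05 and 9.2. The simulated spreads were drawn from the prior that follows the signal, so the comparison favours that prior. On the real arrays the constant prior called 0% of all genes, so these rates may not hold there. Changes of 2-fold were not simulated.

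The 8 genes, the lists and the tests were chosen with earlier results of these data known. Genes named beside the 8 were the other transglutaminases, the 4 genes of each list with the largest absolute differences, the nearest profiles and marker genes. Alternatives were other scalings, added constants, filters, probe set rules and priors, leaving out each array, and a fit with the replicate number as a block. Nothing in the labels pairs arrays by number. Leaving out arrays was extended to the genes and medians of the lists after the data were seen.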

Additional observations from a re-analysis of the deposited data

How the results depend on the processing

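Tgm1, Tgm3, Tgm5, Ivl and Cnfn stayed higher with MC903 under every alternative run. Both MC903 arrays stayed above both vehicle arrays wherever all 4 arrays were kept. With 1 array left out, the remaining MC903 arrays stayed above the remaining vehicle arrays. Over the settings that leave out 1 array the differences ran from 0.88 to 0.93 (Tgm1), 0.64 to 1.62 (Tgm3), 0.83 to 1.04 (Tgm5), 0.78 to 1.46 (Ivl), 1.25 to 1.37 (Cnfn), -0.10 to 0.40 (Evpl), -0.41 to -0.03 (Ppl) and -0.12 to 0.03 (Scel). The median of the enzymes ran from 0.83 to 1.04 (1.03 without vehicle 2) and that of the envelope proteins from -0.10 to 0.40. The sign of Scel also turned with median centring (0.035), without vehicle 2 (0.028), without MC903 1 (0.032) and with the mean of its probe sets (0.30), whose other probe set lies at background. The enzyme median was 0.98 with quantile normalization, 1.02 with median centring and 0.89 with a constant of 64, and 2 genes (Ppl and Scel) were then lower without overlap under quantile normalization. With 1 array left out, 0 to 3 genes were lower without overlap.

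Calls depended on the prior and on the filter. With the prior that follows the signal, Tgm1 (0.91) and Cnfn (1.31) passed, 2 of the 8, with 98 higher and 70 lower among all genes. Without the dimmest 50% the same 2 passed, with 101 and 89, and with a constant of 64 only Cnfn (1.30) passed, 1 of 8, with 41 and 29. Among all genes, 22 and 14 passed without the dimmest 25%, 9 and 3 with the mean of probe sets, 3 higher with quantile normalization and 3 with median centring. Choosing probe sets by mean linear signal, added after the data were seen, gave 3 higher and 2 lower. With that prior and 1 array left out, also added later, 0 of the 8 passed without either vehicle array, 3 without MC903 1 (Tgm1 0.93, Ivl 1.46, Cnfn 1.32) and 5 without MC903 2 (Tgm1 0.88, Tgm3 1.62, Tgm5 1.04, Ivl 0.78, Cnfn 1.30). Among all genes the higher and lower counts were then 7 and 8 without vehicle 1, 5 and 0 without vehicle 2, 134 and 93 without MC903 1, and 546 and 400 without MC903 2. A group left with 1 array borrows its spread from the other group. The deviations of arrays with the same number correlated at -0.061 over genes. With 2 arrays per group this value cannot decide whether arrays of the same number were handled together. With a replicate block 0 of the 8 genes passed.

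Limits: 2 arrays per group, no detection calls, and 1 probe set for Tgm1, Tgm5, Evpl, Ppl and Cnfn, so that no second probe set bears on those genes. A difference between probe sets of different genes is not a difference in transcript amount.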
